A study of Homo sapiens with 12 samples.

Results

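HCT116 cells that received the CDK8 and CDK19 inhibitor Senexin B together with the cytokine TNF-alpha (TNF) were compared with HCT116 cells that received DMSO vehicle alone. The libraries were chosen by their labelled treatment, 3 against 3, and are 6 of the 12 RNA sequencing libraries of the series. In the group with both agents, cells stood in 1 µM Senexin B for 1 hour before TNF was added at 10 ng/mL for 2 hours. Control cells stood in 0.1% DMSO for the same 3 hours with no TNF. Of the other 6 libraries, 3 came from cells given Senexin B alone and 3 from cells given TNF after a DMSO pretreatment, at the same doses and times. They served to divide the net change between the agents, and they also entered the estimate of the spread behind every call. All groups share the parental line, an established human colorectal carcinoma line obtained from ATCC, with no genetic change named in the labels. The results therefore concern 1 cell line, 1 dose of each agent and 1 time of harvest, and the p-values measure only the spread between the replicates of that line, which the labels call biological.

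TNF binds its receptor on the cell surface and, through adaptor proteins and the IKK kinases, releases the transcription factor NF-kB from its IkB inhibitors. NF-kB then switches on chemokine, survival and adhesion genes, together with the genes of its own inhibitors, which end the response. Mediator is the large complex that carries signals from such factors to RNA polymerase II. Its detachable kinase module, made of CDK8 or CDK19 with cyclin C, MED12 and MED13, is known to raise the transcription of some induced genes and to restrain that of others. The comparison asks what the agents do together: where their effects add up and where they cancel.

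Of 56634 gene symbols, 13084 passed the filter on low counts and were tested. Library totals were from 7315736 to 8994809 counts in control cells and from 8401710 to 8787674 counts with both agents. The control libraries differed among themselves somewhat more than those with both agents: counts of replicate pairs gave a chi-square per degree of freedom of 1.38 to 2.92 in control cells and of 1.24 to 1.78 with both agents, where sampling alone gives 1. Of 20 epithelial and colorectal markers 12 passed the filter, and 4 were at 0 in every library. Among those expressed, EPCAM was at a mean of 364 CPM (the depth-normalised count of edgeR) in control cells and KRT18 at 972 CPM. Of 14 blood cell and 8 endothelial markers none reached the filter. The 12 fibroblast markers summed to 10.7 to 11.6 CPM in control cells and to 9.16 to 10.3 CPM with both agents. The drug acts on protein, so the levels of its targets do not check it. CDK8 was at 40.7, 42.5 and 46.1 CPM in control cells and at 41.0, 44.7 and 42.8 CPM with both agents, and CDK19 at 23.9, 25.2 and 22.0 against 23.9, 23.2 and 22.5 CPM. Neither of them, nor CCNC, MED12 or MED13, was called in the net comparison. Of the 7 kinase module genes MED13L alone was called (a log2 change of 0.30 ± 0.05), a share of 14.3% near the 11.2% over all tested genes.

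Both agents together left a transcriptome in which NF-kB target genes stood up to about 2 orders of magnitude above control while EGR1, KLF2, FOS and HSPA1B stood below it. A gene was called when edgeR's quasi-likelihood test gave a Benjamini-Hochberg adjusted p under 0.05. By that rule 1462 of the 13084 tested genes (11.2%) differed between both agents and control, 797 higher (6.09%) and 665 lower (5.08%). Most differences were small. A change of at least 2-fold was found for 100 genes that rose (0.764%) and for 38 that fell (0.290%), whereas 583 of the rising and 540 of the falling genes moved by less than 1.5-fold. In 3478 genes (26.6%) the 3 libraries of each group did not overlap. When each of the 12 libraries was left out in turn, 785 genes were called every time, 499 of them higher and 286 lower.

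**Figure D1:**
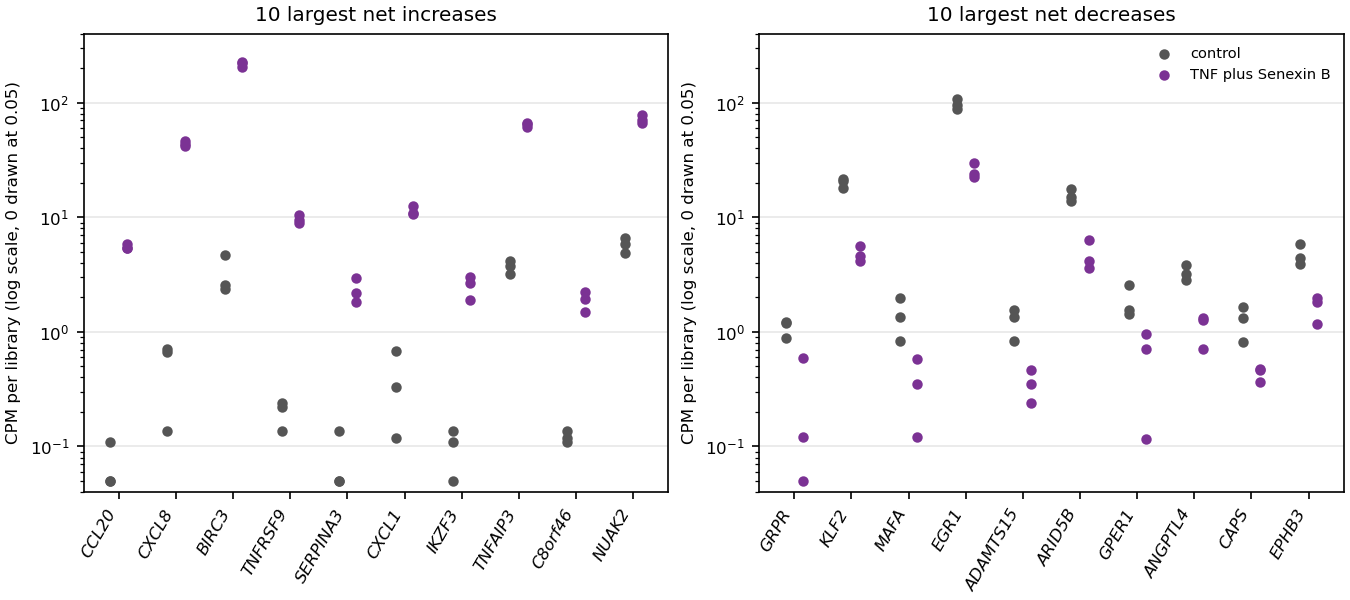
Levels of the 10 genes with the largest net increases (left) and the 10 with the largest net decreases (right) in CPM on a log scale, with a point for each library of control cells and of cells given TNF plus Senexin B; a level of 0 is drawn at 0.05. CXCL8 lies below 1 CPM in the 3 control libraries and between 42.1 and 46.1 CPM with both agents, and EGR1 lies between 88.1 and 108 CPM in control cells and between 22.3 and 30.0 CPM with both.

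The chemokine and survival genes of the NF-kB pathway led the increases, as the plot of the largest changes by library shows. CXCL8, which encodes the neutrophil attractant interleukin-8, was at 0.135, 0.712 and 0.663 CPM in control replicates 1 to 3 and at 42.1, 46.1 and 43.7 CPM with both agents. Its log2 change was 6.35 ± 0.41 (standard error), with an adjusted p of 3.09e-35 in edgeR's test. BIRC3, an inhibitor of apoptosis and ubiquitin ligase of the TNF receptor complex, was at 4.72, 2.37 and 2.54 CPM in control cells and at 227, 222 and 207 CPM with both agents (log2 change 6.12 ± 0.30, adjusted p = 1.83e-10). All libraries with both agents lay far above all control libraries for these genes, and the 3 libraries with both agents lay close together. Groups without overlap were a condition for a place among the largest increases. CCL20, a chemokine that draws lymphocytes and dendritic cells, had 1 count over the control libraries and 142 counts over those with both agents, a ratio of 139 with an exact 95% interval of 24.5 to 5520 that covers counting error only. CXCL1 averaged 0.375 ± 0.280 CPM (SD, n = 3) in control cells and 11.3 ± 1.08 CPM with both, and CXCL2 averaged 0.256 ± 0.245 and 1.72 ± 0.377 CPM. CXCL1, CXCL2 and CXCL3 are close relatives whose reads may be shared between them, so the division among them is uncertain.

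Further genes among the 10 largest increases belong to the same response or carry other roles. TNFRSF9, the co-stimulatory receptor 4-1BB, averaged 0.198 ± 0.0551 CPM in control cells and 9.67 ± 0.757 CPM with both agents. NUAK2, a stress-responsive kinase, was at 6.60, 4.87 and 5.86 CPM in control cells and at 70.9, 78.8 and 66.8 CPM with both (log2 change 3.65 ± 0.14). The remaining members of this group were near silent in control cells. SERPINA3, an acute-phase protease inhibitor, had 1 control count against 59 (ratio 57.7, exact 95% interval 9.96 to 2316). IKZF3, a lymphoid transcription factor, had 2 against 64 (31.3, from 8.31 to 264), and C8orf46 had 3 against 48 (15.6, from 5.04 to 78.5).

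The promoters of a few genes show the kinds of sequence that the pathways named here are known to use. The lines below give the 250 bases before the RefSeq start of each gene on GRCh38.p14, read 5′ to 3′ on the gene's own strand, with the matches that matter in capitals. In CXCL8 (chr4:73740319-73740568, plus strand) the capitals mark an AP-1 match, TGANTCA, from 137 to 131 bases before the start and a kB match, GGANTTNCC, from 91 to 83 bases before it. In NFKBIA (chr14:35404750-35404999, minus strand) they mark kB matches from 242 to 234 and, on the opposite strand, from 81 to 73 bases before the start. In EGR1 (chr5:138465229-138465478, plus strand) they mark 2 CArG boxes, the element bound by serum response factor. In JUN (chr1:58784048-58784297, minus strand) they mark the jun1 element, TGACATCA, an AP-1 and ATF site, from 67 to 60 bases before the start. CXCL8 and NFKBIA are shown as genes that stayed high with both agents, EGR1 as a gene that fell, and JUN as a gene in which the agents cancelled.
CXCL8: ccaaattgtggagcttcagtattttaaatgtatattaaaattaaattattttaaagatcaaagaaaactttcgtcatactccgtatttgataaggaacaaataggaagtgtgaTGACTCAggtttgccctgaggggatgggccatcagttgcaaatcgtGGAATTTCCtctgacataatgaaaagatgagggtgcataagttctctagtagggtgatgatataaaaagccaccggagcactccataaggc
NFKBIA: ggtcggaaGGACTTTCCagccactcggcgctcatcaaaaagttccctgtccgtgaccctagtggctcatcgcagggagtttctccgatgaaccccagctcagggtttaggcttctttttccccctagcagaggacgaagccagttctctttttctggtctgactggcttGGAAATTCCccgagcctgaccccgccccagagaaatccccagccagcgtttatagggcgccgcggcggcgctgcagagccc
EGR1: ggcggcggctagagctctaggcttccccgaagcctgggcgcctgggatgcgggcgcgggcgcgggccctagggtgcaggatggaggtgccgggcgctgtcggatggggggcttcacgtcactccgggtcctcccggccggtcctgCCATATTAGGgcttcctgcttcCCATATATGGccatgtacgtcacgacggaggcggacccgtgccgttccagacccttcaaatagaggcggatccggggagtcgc
JUN: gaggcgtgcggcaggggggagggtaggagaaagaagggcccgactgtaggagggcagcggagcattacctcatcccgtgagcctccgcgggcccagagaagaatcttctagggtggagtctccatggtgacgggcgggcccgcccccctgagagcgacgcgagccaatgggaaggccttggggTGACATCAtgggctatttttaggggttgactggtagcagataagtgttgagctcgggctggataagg

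Both strands of such windows were searched in the 7089 tested genes that have exactly 1 of them. The kB letters were found in 3.87% of all windows and in 16 of the 54 windows (29.6%) of genes at least 2-fold higher with both agents, among them CXCL8, BIRC3, TNFRSF9, CXCL1, TNFAIP3, NFKBIA and SDC4. They were found in none of the 20 windows of genes at least 2-fold lower. The AP-1 letters were found in 3.44% of all windows and in 13.0% of those of the genes at least 2-fold higher. CArG boxes were found in 0.776% of all windows, the EGR1 window being 1 of the 20 of the genes at least 2-fold lower. A match describes letters in a window and is no evidence of a bound factor, and genes without a match may carry the site elsewhere.

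Most NF-kB target genes that passed the filter rose. Of 60 list members 41 were tested, and 36 of these were called higher and none lower, with a median log2 change of 1.44 against 0.00 over all genes. The filter can keep a gene for its level in any single group, the compared group with both agents included, while members silent in all groups drop out. The share called among tested members is therefore not a share of the whole list. Genes of the NF-kB subunits rose, RELB, NFKB2, NFKB1 and REL as members of that list and RELA as a member of the TNF receptor signalling list. RELB went from 10.4 to 78.7 CPM on average, NFKB2 from 74.6 to 299 CPM, NFKB1 from 75.9 to 171 CPM, REL from 11.1 to 25.1 CPM and RELA from 84.8 to 106 CPM. ICAM1, the endothelial and epithelial adhesion molecule for leukocytes, was at 4.45, 4.03 and 4.53 CPM in control cells and at 31.5, 32.2 and 32.4 CPM with both agents. PLAU, the urokinase plasminogen activator, averaged 47.4 ± 1.51 and 261 ± 5.64 CPM. The libraries of the groups did not overlap for ICAM1 or PLAU. Of 31 listed chemokine and cytokine genes only 11 were tested, with the same limit, and 10 of these rose (median log2 change 2.60). They included CSF1 (3.38 to 20.5 CPM), LIF (78.0 to 152 CPM), IL18 (35.6 to 46.4 CPM) and CXCL16 (62.7 to 80.8 CPM).

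The inhibitors that NF-kB induces against itself were also high. NFKBIA, which encodes the inhibitor IkB-alpha, was at 25.1, 25.4 and 25.5 CPM in control cells and at 252, 253 and 259.8 CPM with both agents, a log2 change of 3.33 ± 0.06 (adjusted p = 1.23e-47 in edgeR's test). TNFAIP3, the ubiquitin-editing enzyme A20, was at 3.77, 4.15 and 3.20 CPM and then at 67.1, 64.6 and 61.8 CPM (log2 change 4.12 ± 0.16). Neither gene's groups came near each other. In all, 11 of 19 tested feedback inhibitors rose, among them NFKBIE, ZC3H12A, TNIP1, CYLD and TRAF3, and the ubiquitin ligase gene PELI1 fell (10.6 to 7.55 CPM, log2 change -0.47 ± 0.16). Of 30 tested genes of TNF receptor signalling 6 rose: BIRC3, BIRC2, MAP3K8, CFLAR, IKBKB and RELA. BIRC2, the neighbour and paralogue of BIRC3, went from 53.2, 50.4 and 48.5 CPM to 173, 177 and 162 CPM, and CFLAR, the caspase-8 inhibitor cFLIP, from 34.8, 36.3 and 30.8 CPM to 65.1, 65.1 and 64.8 CPM. The other 24 genes of that list were not called, and the median over all 30 was 0.01.

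Genes that fell most with both agents included transcription factors of the immediate early class. EGR1, a zinc finger factor that serum and growth factors induce within minutes, was at 88.1, 108 and 94.7 CPM in control cells and at 23.9, 30.0 and 22.3 CPM with both agents (log2 change -1.93 ± 0.10, edgeR adjusted p = 1.21e-12). KLF2, a Kruppel-like factor, was at 18.1, 21.7 and 20.6 CPM and then at 5.66, 4.12 and 4.61 CPM (log2 change -2.07 ± 0.16, adjusted p = 8.52e-18). ARID5B, a DNA-binding cofactor of a histone demethylase, was at 15.1, 14.0 and 17.6 CPM and then at 6.39, 3.64 and 4.15 CPM. For these genes every library with both agents lay below every control library, which was a condition for a place among the largest decreases. ANGPTL4, a secreted lipase inhibitor, fell from a mean of 3.28 ± 0.488 to 1.10 ± 0.343 CPM, and EPHB3, an ephrin receptor known as a Wnt target in the intestine, from 4.74 ± 1.00 to 1.65 ± 0.416 CPM. GRPR, MAFA, ADAMTS15, GPER1 and CAPS completed the 10 largest decreases at means under 2 CPM in control cells. Their calls rest on few counts, since leaving out 1 library removed the call in 2 of 12 fits for GRPR, MAFA, ADAMTS15 and GPER1 and in 5 of 12 for CAPS, and GPER1 lies within the more abundant C7orf50 on the other strand.

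The net log2 change of every gene is the sum of a mean TNF effect (TNF with against without, averaged over cells with and without inhibitor) and a mean Senexin B effect (inhibitor with against without, averaged over cells with and without TNF). Their contrasts are orthogonal and share all 12 libraries. The libraries of TNF alone enter the mean TNF effect with a plus sign and the mean Senexin B effect with a minus sign. A shift shared by those libraries therefore moves the effects in opposite directions, the pattern of genes that cancel. The mean TNF effect was called in 1864 genes (14.2%), 7.85% higher and 6.40% lower, and the mean Senexin B effect in 1318 (10.1%), 5.18% higher and 4.89% lower. Both were called with the same sign in 201 genes (1.54%), where the agents add up, and with opposite signs in 200 genes (1.53%), where they cancel. Of the 1462 genes called in the net comparison, 723 had a called TNF effect only, 327 a called Senexin B effect only, 201 added up, 44 cancelled in part, and 167 had neither effect called. Between single groups, TNF alone differed from control in 10.0% of genes (5.81% higher, 4.20% lower), Senexin B alone in 3.04% (1.53% higher, 1.51% lower), and both agents from Senexin B alone in 5.95% (4.27% higher, 1.68% lower). Among the 100 genes at least 2-fold higher, 71 had a TNF effect only, 18 added up, 10 cancelled in part and 1 had a Senexin B effect only. Among the 38 at least 2-fold lower the counts were 19 with TNF only, 10 that added up, 5 with Senexin B only and 4 with neither. Leaving out replicate 2 of the group with both agents lowered the number of genes that cancel to 131, and DESeq2 gave 127 that add up and 128 that cancel.

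**Figure D2:**
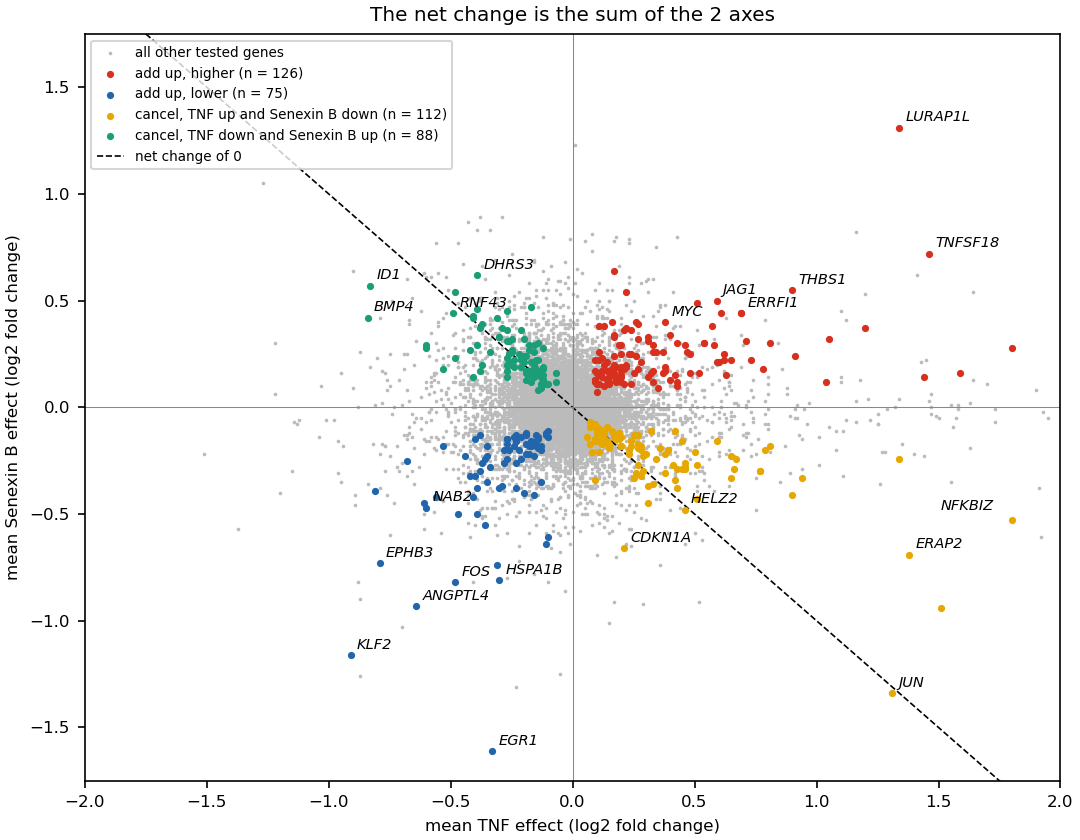
Mean TNF effect (x axis) against mean Senexin B effect (y axis) of each tested gene, both as log2 fold changes, so that the net change is the sum of the axes and is 0 on the dashed line. Coloured points are the 126 and 75 genes where the agents add up and the 112 and 88 genes where they cancel; JUN lies on the line, LURAP1L and KLF2 lie far from it in opposite corners, and 28 genes with larger effects fall outside the axes.

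The classes rest on the mean effects, and what is said below of an agent's direction in a class refers to those. In 126 genes (0.963%) both mean effects were positive, with a median net log2 change of 0.50. All 126 were called higher in the net comparison, which the class definition nearly fixes, since the net change is the sum of both effects. The class includes CLDN4 and IRF2BPL, whose fitted change was not positive with either agent alone. It includes KIAA0040, which averaged 29.9 CPM in control cells and with TNF alone and 34.9 CPM with Senexin B alone. STC2 is also a member, though both agents together were not called against TNF alone (log2 difference 0.01 ± 0.05, adjusted p = 0.921 in edgeR's test). LURAP1L was at 1.35, 0.949 and 0.884 CPM in control cells and averaged 3.01 CPM with Senexin B and 3.11 CPM with TNF. It reached 7.23, 6.11 and 6.57 CPM with both agents (net log2 change 2.65 ± 0.32). THBS1, the matrix glycoprotein thrombospondin-1, lies at chr15:39581079-39599466 (GRCh38). It averaged 44.9 ± 2.82 CPM in control cells, 60.8 CPM with Senexin B and 77.2 CPM with TNF, and reached 117, 123 and 130.1 CPM with both (1.45 ± 0.06). MYC, the growth-promoting transcription factor, was at 393, 419 and 424 CPM in control cells, averaged 563 and 556 CPM with either agent, and reached 701, 711 and 705 CPM with both (0.78 ± 0.04, adjusted p = 4.33e-25 in edgeR's test). For LURAP1L, THBS1 and MYC the libraries with both agents lay above every library of the other groups. The ligand genes TNFSF18 (GITR ligand), EDN1 (endothelin-1), JAG1 (a Notch ligand) and ARTN (artemin) had net log2 changes of 2.18 ± 0.16, 3.00 ± 0.30, 1.09 ± 0.05 and 1.01 ± 0.13. ERRFI1, which encodes the EGF receptor inhibitor MIG6, went from 623 ± 15.8 CPM in control cells to 1369 ± 22.7 CPM with both agents (1.14 ± 0.03).

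In 75 genes (0.573%) both mean effects were negative, with a median net log2 change of -0.51. All 75 were called lower, which the class definition again nearly fixes. KLF2 averaged 20.1 CPM in control cells, 9.72 CPM with Senexin B, 11.2 CPM with TNF and 4.80 CPM with both. NAB2, a co-repressor that binds EGR factors, was at 64.5, 64.9 and 66.6 CPM in control cells and at 32.4, 30.3 and 30.7 CPM with both, between which lay Senexin B at 46.0 CPM and TNF at 41.8 CPM on average. FOS, an AP-1 subunit, was at 5.66, 6.29 and 6.85 CPM and then at 2.41, 1.88 and 3.34 CPM (net log2 change -1.30 ± 0.22). For KLF2, NAB2 and FOS the control libraries lay above those with both agents without overlap; NAB2 overlaps STAT6 on the other strand, so that reads of the pair cannot be told apart in counts whose strand setting is not given in the sources used here. EGR1 also entered this class, but unevenly: its mean Senexin B effect was -1.61 ± 0.07 and its mean TNF effect -0.33 ± 0.07. TNF alone left EGR1 at 86.0 ± 10.1 CPM against 96.8 ± 9.86 CPM in control cells, a difference that was not called (adjusted p = 0.239 in edgeR's test). RCOR2, a CoREST co-repressor, fell from 8.43 ± 0.852 to 4.28 ± 0.419 CPM.

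**Figure D3:**
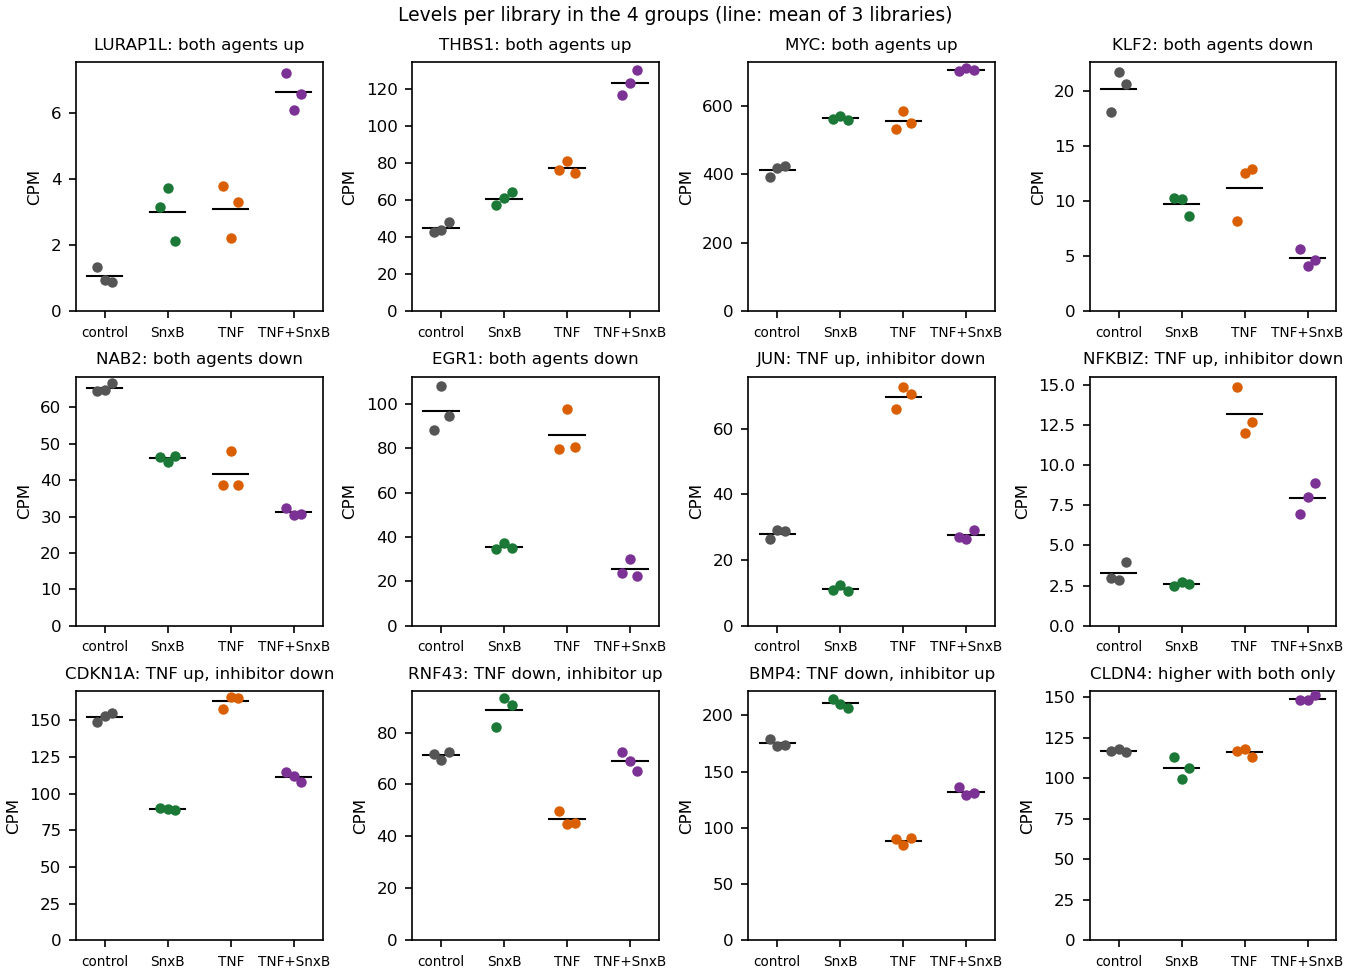
Levels of 12 genes in CPM in each library of control cells, Senexin B (SnxB), TNF and TNF plus Senexin B, with a line at the mean of the 3 libraries of a group and every y axis starting at 0. LURAP1L, THBS1 and MYC are highest and KLF2, NAB2 and EGR1 lowest with both agents, JUN with both agents overlaps control, and CLDN4 is above the other 3 groups only where both agents were given.

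In 112 genes (0.856%) the mean TNF effect was positive and the mean Senexin B effect negative. The net difference from control was not called in 79 of them, and in 63 of these the 95% interval of the net change lay within 1.2-fold in either direction. JUN, the AP-1 subunit that TNF induces through the JNK kinases, shows such a balance between large opposing effects. It was at 26.4, 29.0 and 28.7 CPM in control cells and at 27.1, 26.3 and 29.1 CPM with both agents, while Senexin B alone gave 10.8, 12.4 and 10.5 CPM and TNF alone 66.1, 72.7 and 70.5 CPM. The control libraries and those with both agents overlapped, and those of the single agents lay far below and far above them. The net log2 change of JUN was -0.03 ± 0.09, with a 95% interval from 0.872 to 1.10-fold, made of a mean TNF effect of 1.31 ± 0.07 and a mean Senexin B effect of -1.34 ± 0.07. HELZ2, a helicase that acts as a nuclear receptor co-activator, had a net change of -0.02 ± 0.10 and GEM, a small GTPase, one of 0.08 ± 0.13, with control libraries at 10.8 to 12.8 CPM and libraries with both agents at 11.4 to 13.1 CPM for GEM. ERAP2, a peptidase that trims peptides for MHC class I, was at 1.89, 1.78 and 2.21 CPM and then at 3.50, 2.70 and 3.34 CPM, without overlap but not called (adjusted p = 0.11 in edgeR's test).

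The net change was called higher in 29 of these 112 genes, in which the TNF effect was larger than the opposing one. CD83, an immunoglobulin-type surface marker of activated dendritic cells, averaged 12.8 CPM in control cells, 10.8 CPM with Senexin B, 118 CPM with TNF and 78.3 CPM with both. NFKBIZ, an atypical IkB protein that assists NF-kB at secondary target genes, was at 2.96, 2.85 and 3.98 CPM in control cells, averaged 13.2 CPM with TNF and was at 6.99, 8.00 and 8.88 CPM with both (net log2 change 1.27 ± 0.19). Both genes thus stayed above control without overlap and below TNF alone. TNFAIP2, ICAM1, IRF1, NFKBIA, PLAU and SDC4 were in the same class with net log2 changes from 1.77 to 3.33. With Senexin B alone against control, NFKBIA, PLAU and SDC4 were not called (log2 changes -0.15 ± 0.08, -0.05 ± 0.06 and -0.11 ± 0.05). TNFAIP2 and IRF1 were called lower in that comparison (-0.27 ± 0.06 and -0.37 ± 0.11), and CD83 and NFKBIZ were not called. TNFRSF9 entered it with 0 counts in the 3 Senexin B libraries, so its fitted inhibitor effect is not a size. The net change was called lower in 4 genes, CDKN1A, DNAJA1, DDX5 and H3F3B. CDKN1A (the cyclin-dependent kinase inhibitor p21) was at 149, 153 and 155 CPM in control cells and at 115, 112 and 108 CPM with both agents, with Senexin B alone at 89.5 CPM and TNF alone at 163 CPM on average (net log2 change -0.45 ± 0.05). Its change with TNF alone was not called (log2 change 0.10 ± 0.05, adjusted p = 0.192 in edgeR's test).

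Several of the most strongly induced genes did not enter the class, although both agents left them below TNF alone. Their levels without TNF were at few counts, so the inhibitor effect there is measured with a wide error. CXCL8 averaged 76.8 ± 7.57 CPM with TNF alone and 44.0 ± 2.03 CPM with both agents, a log2 difference of -0.79 ± 0.07 (adjusted p = 1.86e-12), whereas its mean Senexin B effect of -0.68 ± 0.32 was not called. BIRC3 differed by -0.60 ± 0.09 between both agents and TNF alone, CXCL1 by -1.05 ± 0.12 and CXCL2 by -1.26 ± 0.29, all called lower. Over all genes 5.45% were called in that comparison, 2.90% higher and 2.55% lower. TNFAIP3 was lower by a smaller step, -0.26 ± 0.07. CFLAR, BIRC2 and NUAK2 differed in the other direction, by 0.26 ± 0.07, 0.18 ± 0.05 and 0.32 ± 0.07 (adjusted p = 0.0129, 0.0241 and 0.00401 in edgeR's test).

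In 88 genes (0.673%) the mean TNF effect was negative and the mean Senexin B effect positive, and in 77 of them the net change was not called, with 60 of these within 1.2-fold. RNF43, a ubiquitin ligase that removes Wnt receptors from the cell surface, was at 71.8, 69.4 and 72.7 CPM in control cells and at 72.6, 69.1 and 65.1 CPM with both agents, with Senexin B alone at 88.8 CPM and TNF alone at 46.6 CPM on average. Its net log2 change was -0.05 ± 0.06, and the groups overlapped. RNF43 (chr17:58352500-58417595, GRCh38) shares positions with SUPT4H1 on the same strand. PRICKLE1, SLC16A6, NOS1AP and ZNF362, all under 10 CPM in control cells, had net changes from 0.01 to 0.07. Of the 11 called genes, ID1, BMP4, BDNF, IER5L, TNS4, DUSP6 and NR2F6 stayed below control and DHRS3, SH3RF1, NR2F1 and CNN2 above it. BMP4, a ligand of the TGF-beta superfamily, was at 179, 173 and 174 CPM in control cells and at 136, 129 and 131 CPM with both (net log2 change -0.41 ± 0.05), with TNF alone at 88.2 CPM. ID1, a target of BMP signals that blocks helix-loop-helix factors, was at 122, 122 and 117 CPM and then at 106, 98.6 and 96.7 CPM (-0.26 ± 0.05), with TNF alone at 62.9 CPM. DHRS3, a retinaldehyde reductase, was the reverse, at 33.8 ± 0.797 CPM in control cells and 39.9 ± 2.17 CPM with both, a call that was lost in 4 of the 12 fits that leave out a library.

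The classes differed in base composition. Median transcript GC content was 48.4% over all tested genes, 44.1% where TNF raised and Senexin B lowered the level, 58.0% where TNF lowered and Senexin B raised it, 56.9% where both lowered it and 48.0% where both raised it. The comparison of TNF alone with control followed GC content across 12483 genes (Spearman's rho -0.41, genes that share the same 6 libraries), and 1 library, TNF replicate 1, stood apart in this respect (rho -0.649 of its deviations with GC). Both mean effects use that library, with opposite signs, and its part in the classes was not tested. The net comparison, which does not use that library's level, followed GC content little over all genes (rho -0.06). Its called genes still differed in GC content, with a median of 53.1% for those lower, 47.7% for those higher and 48.3% for genes not called. With offsets corrected for GC content, 249 genes added up, 165 of them among the 201, and 174 cancelled, 123 of them among the 200. JUN, RNF43, MYC and KLF2 kept their net value's call under that correction, as did each of the 128 named genes.

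The interaction, which asks whether the net change differs from the sum of the changes that each agent gave alone, was called in edgeR's test in 6 genes (0.0459%), 3 above that sum (0.0229%) and 3 below it (0.0229%). The interaction is measured with a larger error than the mean effects, so a gene without a call is not shown to be additive. CLDN4, a tight junction protein, was at 117, 118 and 116 CPM in control cells and at 148, 148 and 151 CPM with both agents, although Senexin B alone gave 113, 99.2 and 106 CPM and TNF alone 117, 118 and 113 CPM. IRF2BPL, a transcriptional regulator, was at 64.0, 66.9 and 61.9 CPM in control cells and at 83.3, 80.1 and 84.2 CPM with both, while the libraries of the single agents lay between 53.9 and 68.2 CPM. In both genes the libraries with both agents lay above all 9 others, with interactions of 0.50 ± 0.07 (adjusted p = 4.41e-05) and 0.45 ± 0.09 (adjusted p = 0.0316) in edgeR's test. STC2, the glycoprotein stanniocalcin-2, was at 112, 112 and 102 CPM in control cells, 150.3, 148 and 143 CPM with Senexin B, 188, 203 and 200 CPM with TNF, and 203, 197 and 197 CPM with both, so that the libraries with both agents overlapped those with TNF alone. The other genes were ASNS, BMP4 and SDC4. The count depends on single libraries: it was 2 without Senexin B replicate 2 or 3 or without replicate 1 or 3 of both agents, and 3 without control replicate 1 or 2.

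**Figure D4:**
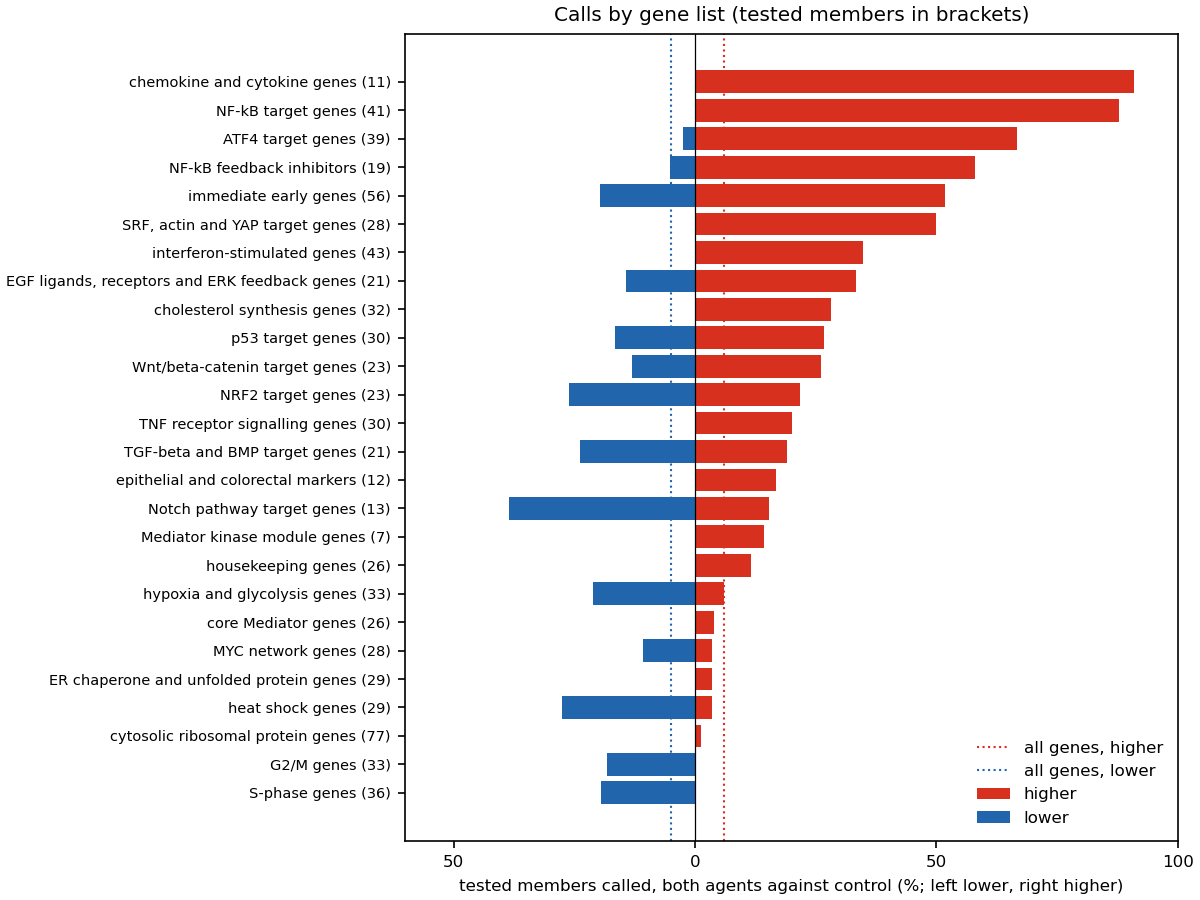
Share of the tested members of each gene list that were called higher (red, to the right) or lower (blue, to the left) in TNF plus Senexin B against control, in percent, with the number of tested members in brackets. Dotted lines mark the shares over all tested genes, 6.09% higher and 5.08% lower; NF-kB targets, chemokines and ATF4 targets lie far to the right, and no S-phase or G2/M gene was higher.

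Immediate early genes, which cells switch on within minutes of a signal and without new protein, split into both directions. Of 56 tested members 29 rose and 11 fell (71.4% called against 11.2% over all tested genes, median log2 change 0.36). Those that rose included JUNB (50.4 to 159 CPM), FOSL2 (55.7 to 166 CPM), MAFF (20.8 to 58.6 CPM), ATF3 (22.5 to 56.0 CPM) and the phosphatase gene DUSP5 (159, 165 and 174 CPM against 424, 441 and 427 CPM). Those that fell were KLF2, EGR1, FOS, CSRNP1, SERTAD1, ARC, SERTAD3, DUSP6, IER5L, IER2 and IER5. Within the AP-1 family the net direction thus differed between members: JUNB, FOSL2 and FOSL1 (166, 179 and 175 CPM against 267, 291 and 283 CPM) rose, FOS fell, and JUN was not called. Among Kruppel-like factors KLF2, KLF13 and KLF16 fell, while KLF4 (18.8 to 39.1 CPM), KLF5 (75.7 to 118 CPM), KLF6 (99.7 to 194 CPM), KLF3 and KLF10 rose. SRF, the factor that binds CArG boxes, rose from 98.1 to 142 CPM. JUNB lies within HOOK2 on the other strand, so reads of that pair cannot be told apart either. Of the 28 tested SRF, actin and YAP target genes 14 rose and none fell, with VCL (vinculin) at 248, 253 and 250.3 CPM and then at 370.3, 382 and 377 CPM and CYR61, a secreted matrix protein, at 38.0, 36.7 and 37.3 CPM and then at 74.0, 82.4 and 71.0 CPM.

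Targets of ATF4, the factor that answers amino acid shortage and other stresses, rose broadly but by little. Of 39 tested members 26 rose and 1, ATF5, fell (69.2% called against 11.2% over all tested genes), with a median log2 change of 0.23. Split by agent, the median mean Senexin B effect of the list was 0.16 and the median mean TNF effect 0.06, and 20 members had a called Senexin B effect only. CHAC1, which degrades glutathione, went from 13.6 to 23.1 CPM, TRIB3, a pseudokinase, from 67.9 to 94.8 CPM, and SESN2, a leucine sensor, from 28.6 to 43.6 CPM. ATF4 itself was at 508, 517 and 521 CPM in control cells and at 635, 675 and 664 CPM with both, and SLC38A2, an amino acid transporter, at 975, 957 and 985 CPM and then at 1361, 1348 and 1367 CPM. The groups of both genes did not overlap. Of 29 tested ER chaperone and unfolded protein genes XBP1 alone was called (64.7, 70.8 and 66.8 CPM against 97.0, 110.1 and 111 CPM). Of 32 tested cholesterol synthesis genes 9 rose and none fell (28.1% called), with a median of 0.04. HMGCS1, which encodes an early enzyme of that synthesis, went from 118 to 151 CPM on average (log2 change 0.36 ± 0.05).

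Among heat shock genes, which encode chaperones and their helpers, the called changes were mostly decreases. Of 29 tested members 8 were lower and 1 was higher (DNAJB6), with a median log2 change of -0.07. In all 31.0% were called, against 11.2% over all tested genes. HSPA1B, an inducible HSP70 gene, was at 161, 153 and 145 CPM in control cells and at 76.5, 68.5 and 67.6 CPM with both agents (log2 change -1.11 ± 0.05, adjusted p = 9.83e-25 in edgeR's test), although its near copy HSPA1A may share its reads. DNAJB1, the HSP40 partner of HSP70, was at 357, 369.9 and 373 CPM and then at 222, 221 and 227 CPM, and HSPA8, the constitutive HSP70, at 3571, 3675 and 3838 CPM and then at 2953, 2960 and 3051 CPM. No library with both agents reached a control library for these genes. DNAJB1 overlaps TECR on the other strand. The mean Senexin B effect was -0.81 ± 0.04 for HSPA1B against a mean TNF effect of -0.30 ± 0.04, and -0.61 ± 0.03 for DNAJB1 against -0.10 ± 0.03.

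Interferon-stimulated genes were higher where they were called, with 15 of 43 tested members higher and none lower (34.9% called against 11.2% over all tested genes). The other 28 were not called, and the median log2 change was 0.16. IRF1, a transcription factor that NF-kB and interferons induce, was at 19.8, 16.9 and 17.0 CPM and then at 65.1, 72.0 and 71.6 CPM. IFIH1 and DDX58, the RNA sensors MDA5 and RIG-I, rose from 6.23 ± 0.543 to 18.6 ± 0.230 CPM and from 11.9 ± 0.575 to 25.0 ± 1.22 CPM. TAP1, a peptide transporter of antigen presentation, rose from 34.0 to 55.9 CPM, and B2M, the light chain of MHC class I, from 263 to 328 CPM.

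Developmental pathways showed members in both directions. Called shares were 39.1% of the Wnt, 53.8% of the Notch, 42.9% of the TGF-beta and BMP and 43.3% of the p53 list, against 11.2% over all tested genes. Of 23 tested Wnt/beta-catenin targets 6 rose and 3 fell: JAG1, MYC, PPARD, SOX9, CD44 and DKK1 against EPHB3, AXIN2 and BMP4. AXIN2, the usual feedback target of the pathway, went from 13.7 to 6.08 CPM (log2 change -1.17 ± 0.14). Of 13 tested Notch pathway genes 5 fell (LFNG, HES1, NOTCH1, HEYL and JAG2) and 2 rose (JAG1 and DTX3L). LFNG, which adds sugars to Notch receptors, was at 9.57, 8.54 and 8.51 CPM and then at 4.46, 3.17 and 3.11 CPM. Of 21 tested TGF-beta and BMP targets 4 rose and 5 fell, among them ID2 (61.4, 61.0 and 63.4 CPM against 28.8, 25.4 and 25.9 CPM), whereas its relative ID3 rose from 47.8 to 63.0 CPM. Among 30 tested p53 targets 8 rose, including TNFRSF10B (183, 183 and 173 CPM against 315, 322 and 318 CPM), the death receptor DR5, and BBC3 (9.88 to 19.7 CPM), the cell death protein PUMA, and 5 fell, including CDKN1A and MDM2 (208 to 166 CPM).

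Cell cycle genes were lower where they were called. Of 36 tested S-phase genes 7 fell and none rose, and of 33 tested G2/M genes 6 fell and none rose, with medians of -0.01 and -0.08. These shares, 19.4% and 18.2%, stand against 5.08% called lower and 11.2% called either way over all tested genes. RRM2, a subunit of ribonucleotide reductase, was at 724, 797 and 760.3 CPM in control cells and at 592, 631 and 591 CPM with both agents, CKS2 at 147, 134 and 141 CPM and then at 110.4, 113 and 108 CPM, and KIF20A at 138, 134 and 139 CPM and then at 102, 109 and 114 CPM. The groups did not overlap, and the changes were small, at log2 values of -0.33 ± 0.04, -0.34 ± 0.05 and -0.34 ± 0.05. Of 33 tested hypoxia and glycolysis genes (27.3% called) 7 fell, led by the glucose transporter gene SLC2A1 (301 to 212 CPM), and 2 rose. NRF2 targets (47.8% called) divided into 5 higher, led by TXNRD1 (700.4 to 992 CPM), and 6 lower, led by OSGIN1 (14.5 to 8.59 CPM), of 23. Of 28 tested MYC network genes MYC alone rose and 3 fell (MXD1, MXD4 and ODC1), a called share of 14.3% near the 11.2% over all tested genes. Each of those 3 lost its net call in 5 or more of the 12 fits that leave out a library.

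EGF receptor ligands and feedback genes had 7 of 21 tested members higher and 3 lower (47.6% called). EREG and AREG, the ligands epiregulin and amphiregulin, were at 896, 952 and 855 CPM against 1403, 1385 and 1339 CPM and at 193, 203 and 204 CPM against 288, 283 and 299.7 CPM. The ERK phosphatase gene DUSP6 fell from 141 to 110.5 CPM, with DUSP7 and SPRED1 also lower. Of 77 tested cytosolic ribosomal protein genes RPL3 alone was called (log2 change 0.14 ± 0.03), of 26 core Mediator genes MED15 alone (0.27 ± 0.06), and of 26 housekeeping genes B2M, CHMP2A and ACTB. The called shares of these lists were 1.30%, 3.85% and 11.5%, against 11.2% over all tested genes. Among the 12 tested epithelial markers ELF3, an epithelial ETS factor, rose from 31.3, 34.5 and 36.7 CPM to 117, 111 and 124 CPM, CLDN4 rose as given above, and the other 10 were not called.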

How the data were processed

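Total RNA of 12 samples was made into libraries with a TruSeq RNA preparation kit, per the labels' protocols; the kit keeps no record of strand. The deposited table held raw read counts per gene symbol, not normalized. The submitters' processing notes name STAR 2.4 and SAMtools 1.2, featureCounts, Subread 1.4.6 and the genome build GRCh38, without roles or order. The annotation release, the strand setting, the treatment of multi-mapping reads and the DMSO content of wells with Senexin B are not given in the sources used here.

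All 12 libraries entered the same edgeR 4.0.16 model (R 4.3.3), with a coefficient for each group, TMM scaling, low counts removed by filterByExpr and robust quasi-likelihood dispersions, so that the 4 groups shared an estimate of the spread (biological coefficient of variation 3.62%). Contrasts were both agents against control, each agent alone, the mean TNF and mean Senexin B effects and the interaction. Adjusted p-values are Benjamini-Hochberg values over 13084 genes, with calls at 0.05. Errors of log2 changes are Wald standard errors scaled by the posterior quasi-dispersion, and 95% intervals are normal intervals from them. CPM use TMM-scaled totals, and SDs are over 3 libraries. With 3 against 3, an exact permutation test of a single value cannot go below p = 0.1.

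The comparison, the classes, the 29 gene lists (906 entries, 830 genes, from textbook knowledge) and the rule for named genes were chosen with earlier results of these data known, so no list is independent evidence. By that rule the text names the 10 largest called net increases and decreases (a mean of 1 CPM or more where expression was higher, groups not overlapping), the 6 genes of each direction that add up and the 8 of each direction that cancel with the largest smaller effect, up to 4 called members per list with the smallest adjusted p, and 16 fixed genes of the pathway and the drug's target. The 6 genes with a called interaction bring the number to 128. Further list and class members are named for their role or where few were called, after their values were seen. Promoter windows came from RefSeq (GRCh38.p14), and GC content and gene positions from GENCODE on GRCh38.

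On simulated counts of the 13084 genes, 200 genes were given a net change and 100 others opposite changes by both agents. The net contrast recovered 97% of genes changed 1.5-fold and 100% of those changed 2-fold or 4-fold, with 17 false calls among 215. The changed genes were drawn only from genes well above 1 CPM, so these shares do not cover genes near that level. The simulated libraries had no GC trend and no gene-specific quasi-dispersion, and the net change was placed only in the group with both agents. The shares recovered at the real spread of each gene may therefore be lower. Alternatives were RLE scaling, DESeq2 1.42.0, no filter, a replicate block, GC-corrected offsets, only the 6 libraries compared, and leaving out libraries. At these depths 1 CPM is a handful of counts per library, which limits genes near that level. Besides the overlaps given beside their genes, THBS1, PRICKLE1, SLC16A6, NOS1AP, PLAU, DTX3L, TNFRSF10B, MXD1, TXNRD1, KIF20A and VCL also share positions with another tested gene, so part of their counts may belong to it. The value of 1 list member is not reported here.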

Additional observations from a re-analysis of the deposited data

Results flagged for a closer look

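For 6 genes the change with both agents differed from the sum of the changes that each agent gave alone, by the interaction term of edgeR's fit. The interaction of STC2 was -0.42 ± 0.07 on the log2 scale (adjusted p = 0.000375): its changes with TNF alone and Senexin B alone were 0.86 and 0.43, and its net change was 0.87. ASNS, asparagine synthetase, had an interaction of -0.32 ± 0.06 (adjusted p = 0.0117), with single changes of 0.31 and 0.24 and a net change of 0.23. SDC4, the proteoglycan syndecan-4, had an interaction of -0.31 ± 0.06 (adjusted p = 0.0117), with single changes of 2.19 and -0.11 and a net change of 1.77. In these 3 genes the net change was below the sum of the single changes.

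For the other 3 the net change was above that sum. CLDN4 had an interaction of 0.50 ± 0.07 (adjusted p = 4.41e-05), with single changes of -0.01 with TNF and -0.14 with Senexin B and a net change of 0.35. IRF2BPL had an interaction of 0.45 ± 0.09 (adjusted p = 0.0316), with single changes of -0.05 and -0.04 and a net change of 0.36. BMP4 had an interaction of 0.32 ± 0.07 (adjusted p = 0.0446), with single changes of -0.99 and 0.27 and a net change of -0.41. These values are given without an explanation, which was not tested.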

How the results depend on the processing

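The count of genes called with both agents against control stayed within 1.5 times its value of 1462 under every alternative run, from 1015 with DESeq2, all of them among the 1462, to 1787 with GC-corrected offsets, and leaving out a library gave from 1069 to 1759. No gene called under an alternative and in the reported fit changed sign, and the median log2 change of all genes stayed at 0.00. DESeq2 gave 127 genes that add up, 128 that cancel and 870 with a mean Senexin B effect; the cause was not tested. Leaving out a library gave from 139 to 212 genes that add up, from 131 to 290 that cancel, from 1513 to 1965 with a mean TNF effect, from 993 to 1452 with a mean Senexin B effect and from 2 to 9 interactions. Without a filter on low counts there were 10 interactions. With control replicate 1 and TNF replicate 1 both left out, 1586 genes were called, 212 added up and 174 cancelled.

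Replicate numbers are shared between groups in the labels, but the pairing is not stated and same-numbered libraries did not all deviate together, with correlations of their deviations from -0.037 to 0.186. A fit with the replicate number as a block called 1580 genes, of which 1459 were among the 1462, with 215 that add up and 255 that cancel. In 7 of 12 libraries the deviations correlated best with those of the same number.

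Of the 128 named genes none changed direction with a call. DESeq2 gave no adjusted p for 10 of them and for 32 of the genes called, and DHRS3, MXD4, MXD1 and E2F2 lost their call with it. Leaving out a library of the groups compared cost between 4 and 8 of the named genes their call. Depth limits the near-silent genes, whose folds rest on 1 to 3 control counts.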
